A study of Mus musculus with 3 samples.

Results

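Patrolling monocytes, also called Ly6C-low or non-classical monocytes, were examined in single-cell RNA sequencing of mouse liver after paracetamol injury. A droplet barcode stands for a cell here. The members were chosen by their measured counts of marker genes: a cell was taken if at least 3 of the genes Ace, Treml4, Spn, Cd300e, Eno3 and Adgre4 had a transcript count. They also needed at least 1 count of Csf1r, the receptor for the main growth factor of monocytes and macrophages, and at most 5 counts of C1qa, C1qb and C1qc together. Any count of Cd209a, Cd79a, Cd3e or Siglech, markers of a dendritic cell type, B cells, T cells and plasmacytoid dendritic cells, removed the cell. This left 298 of 30684 kept cells: 172 came from the liver given PBS, 108 from that given native MSCs and 18 from that given engineered MSCs.

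The mice had received 500 mg/kg of paracetamol, which all 3 groups share, and 6 h later an infusion. It held phosphate-buffered saline (PBS), native mesenchymal stromal cells (MSCs), or MSCs engineered to carry bispecific polyvalent peptides. Whole liver was dissociated at day 4. No strain, age, source of the MSCs or uninjured liver is given in the sources used here. Each group is 1 mouse and 1 library, so no test between groups exists, and intervals between libraries cover counting error only. Kept cells had a median of 5959 counts (unique molecular identifiers, UMIs) in PBS, 6088 in native MSC and 3845 in engineered MSC. Few barcodes were shared between libraries, 4 of the 172, 1 of the 108 and 0 of the 18 members.

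Monocytes leave the bone marrow as classical, Ly6C-high cells, which follow Ccr2 ligands into inflamed tissue and turn into macrophages. Some of them convert in the blood into patrolling monocytes, a step that needs the nuclear receptor Nr4a1. Patrolling cells crawl along the endothelium on the integrin LFA-1, whose alpha chain is the product of Itgal, and depend on the fractalkine receptor Cx3cr1 and the survival protein Bcl2. They clear debris and damaged endothelium inside vessels. In the injured liver both kinds are present, and the patrolling kind has been linked to repair.

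The genes that selected the cells were high in them by construction, and their levels are given as a description. Adgre4, which encodes an adhesion receptor of the F4/80 family, was detected in 277 of the 298 members, and Treml4, a receptor that binds dead cells, in 251. Ace, angiotensin-converting enzyme, was found in 186 and Spn, the sialoglycoprotein CD43, in 163. The enolase gene Eno3 was found in 108 members and Cd300e, an activating receptor, in 32. Detection of 3 of the 6 genes was the common case, with 208 members, while 66 had 4, 15 had 5 and 9 had all 6. Just outside the rule lay 636 cells that met every other condition with 2 of the 6 genes. The limit on C1q counted as well. Of 686 cells that passed all else, 388 had more than 5 C1q counts, and 29 of these had 6 to 10.

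The name patrolling monocyte held only in part. Ccr2, the receptor that marks classical monocytes, had a count in 148 of the 172 PBS members, in 86 of the 108 native MSC members, and in 7 of the 18 engineered MSC members. After each cell was thinned to 2000 UMIs these shares were 69.6%, 50.5% and 18.8%, against 78.7%, 72.2% and 64.1% in classical monocytes. T cells, some of which express Ccr2 themselves, showed 18.8%, 23.9% and 21.5%. In engineered MSC the share, 3 of 16 thinned cells (4.05% to 45.6%), was near that of T cells, which does not show that Ccr2 was absent. In PBS and native MSC it lay well above. The 7 engineered MSC cells with Ccr2 were not alike, since 4 of them held 89.7% of its 29 UMIs. Only 5 PBS, 1 native MSC and 6 engineered MSC members had no count of Ccr2, F13a1, Vcan or Chil3, all genes of classical monocytes. The last 3 of these set apart the classical class described next, which needs at least 2 of them. Many members met that part of its definition too. In PBS 58 of 172 members had 2 of these 3 genes and 31 had all 3. In native MSC these were 32 and 47 of 108, and in engineered MSC 2 and 2 of 18. The make-up of the members thus differed between the livers. Free RNA was not subtracted, and its part in these counts was not tested.

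Levels of some genes outside the rule followed the number of the 6 genes detected; these steps are a description, since classical monocytes were also selected on genes of their own. In PBS, Itgal was at 234 CPM (a gene's UMIs scaled to a fixed total per group of cells) in classical monocytes, 501 in cells with 2 of the 6 genes, 581 in members with 3 and 810 in members with 4 or more. The same steps were 157, 238, 339 and 458 CPM in native MSC, and 147, 200, 545 and 1204 in engineered MSC. Fn1, fibronectin, a gene of classical monocytes and macrophages, was at 2448, 1363, 1605 and 839 CPM along these steps in PBS. In native MSC it was at 1713, 1313, 1301 and 260 CPM, again lowest in the last step. The monocyte attractant gene Ccl2 was at 561, 225, 111 and 65.4 CPM in PBS along the same steps. The cells just below the threshold of 3 genes thus lay between classical monocytes and members for Itgal and Ccl2 in all 3 livers.

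**Figure D1:**
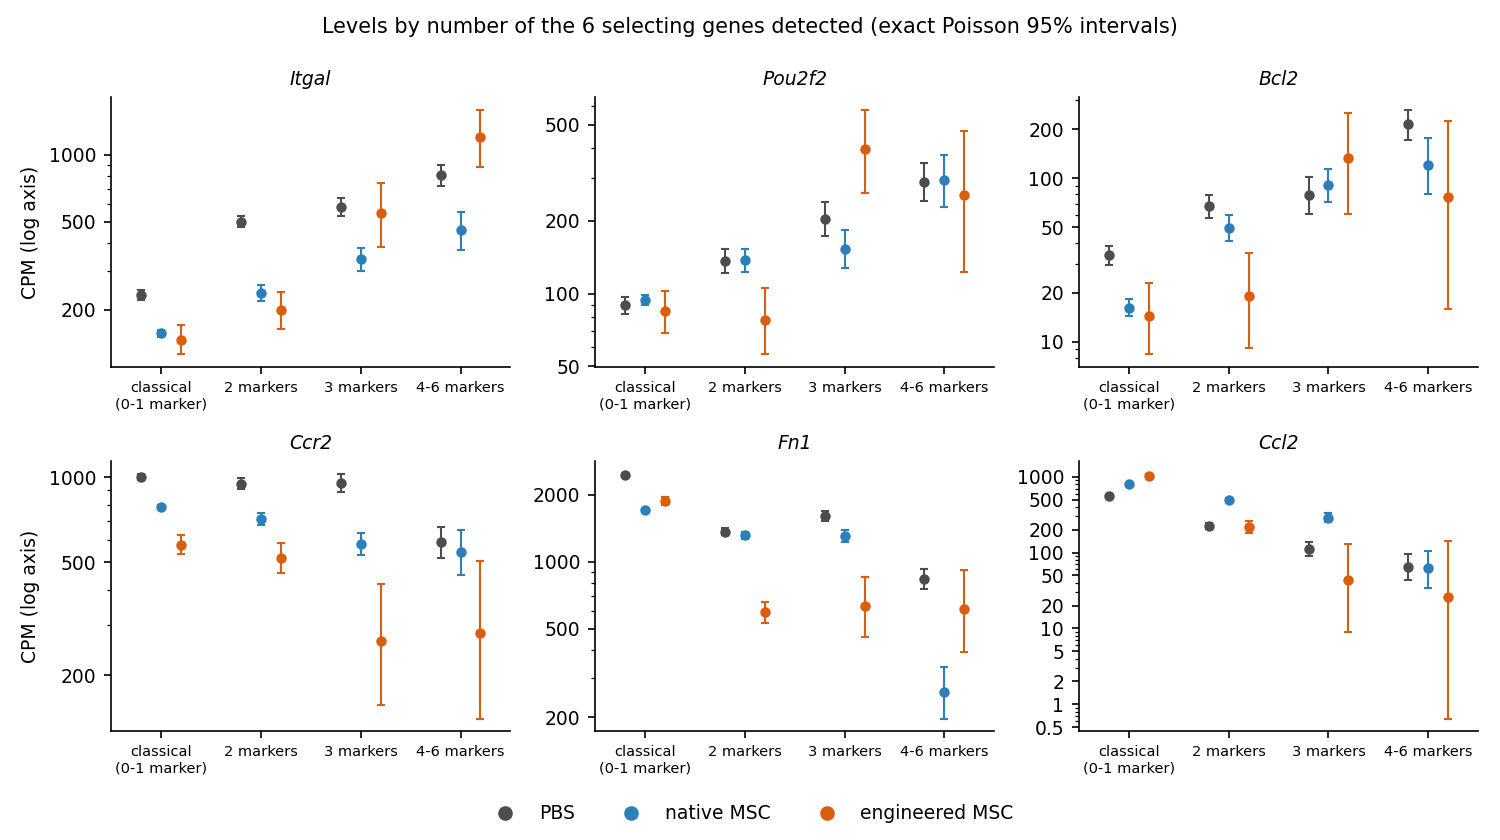
Level (CPM, log axis) of 6 genes that the selection did not use, in classical monocytes and in cells with 2, 3 or 4 to 6 of the 6 selecting genes, for each liver (colours). Points are UMIs summed over cells and bars exact Poisson 95% intervals; in PBS, Itgal and Pou2f2 are highest and Fn1 and Ccl2 lowest in members with 4 to 6 genes, and the 5 engineered MSC cells with 4 to 6 genes have wide intervals.

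Members formed 1.65% of kept cells in PBS (172 of 10437, exact binomial 95% interval 1.41 to 1.91). Native MSC had 1.06% (108 of 10203, 0.869 to 1.28) and engineered MSC 0.179% (18 of 10044, 0.106 to 0.283). The intervals of the 3 livers did not overlap. The share was 1.56-fold lower in native MSC than in PBS (interval 1.22 to 2.00), and 9.20-fold lower in engineered MSC than in PBS (5.65 to 15.9). Among cells with a count of Ptprc, the common leukocyte gene CD45, members were 2.19%, 1.33% and 0.317%. Fewer members can mean fewer cells of the type or less transcript of the 6 genes per cell, and these cannot be told apart.

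The order of the livers changed with the denominator. Classical monocytes were taken as cells with Csf1r, at least 2 of F13a1, Vcan and Chil3, at most 1 of the 6 selecting genes, and the same C1q limit and exclusions. They numbered 987 in PBS, 1812 in native MSC and 117 in engineered MSC. Of patrolling and classical monocytes together, members were 14.8% in PBS (172 of 1159), 5.63% in native MSC (108 of 1920) and 13.3% in engineered MSC (18 of 135). On that base native MSC stood 2.64-fold below PBS (2.06 to 3.39). Engineered MSC was at 0.898 times the PBS share (0.520 to 1.46), an interval that includes 1, and at 2.37 times the native MSC share (1.35 to 3.93).

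Depth and the C1q limit moved these shares. With every cell thinned to 2000 UMIs, the rule was met by 30 of 8676 cells in PBS and 14 of 8889 in native MSC. In engineered MSC it was met by 7 of 7971. The engineered MSC share was then 3.94-fold below PBS (1.69 to 10.6), and its ratio to native MSC was 0.558 (0.190 to 1.48), which includes 1. With at most 2 C1q counts the native MSC share was 0.895 times that of PBS (0.675 to 1.18). Of members, 60 PBS, 10 native MSC and 1 engineered MSC cell had 3 to 5 C1q counts, so PBS loses most under that limit. Whether these C1q counts were free RNA was not tested.

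**Figure D2:**
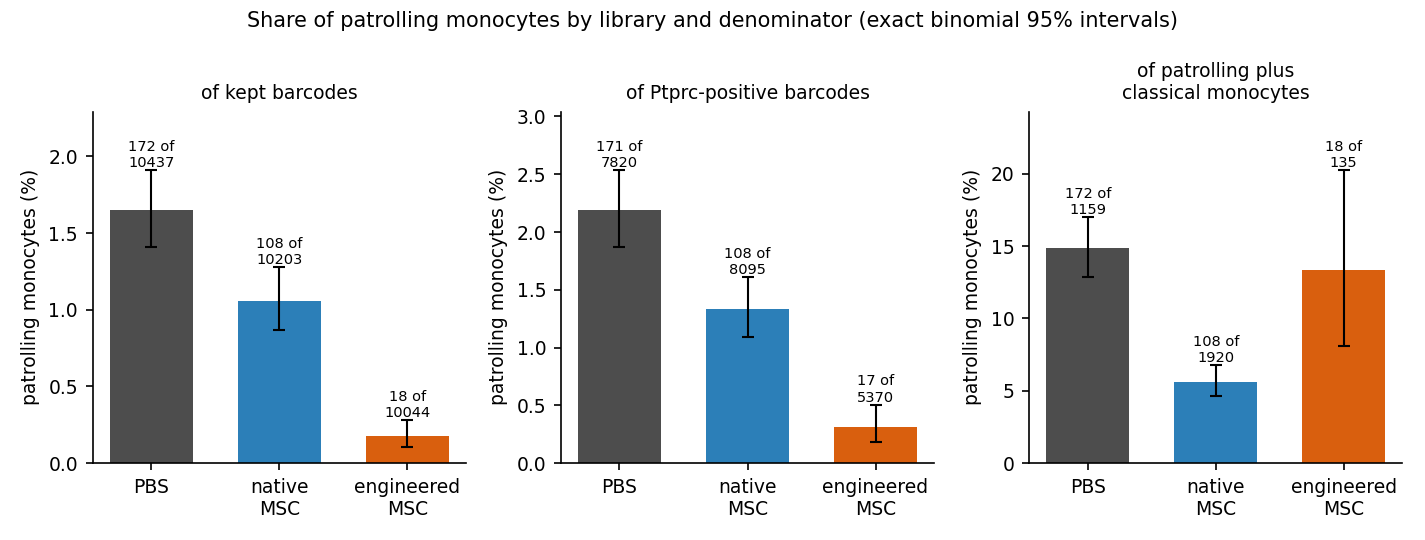
Patrolling monocytes as a percentage of kept cells, of Ptprc-positive cells, and of patrolling plus classical monocytes (y axes) in the 3 libraries (x axes). Bars start at 0, error bars are exact binomial 95% intervals and the counts stand above each bar; engineered MSC is lowest on the first 2 bases (0.179% and 0.317%) and close to PBS on the third (13.3% against 14.8%).

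The next comparison asks how members differ from classical monocytes of the same livers. UMIs were summed over each class in each liver, and the class difference was tested over the 3 livers with edgeR's quasi-likelihood test and the library as a block. C1q macrophages were another class in the fit: cells with Csf1r, at least 20 C1q counts, at most 1 of the 6 genes, the same exclusions, and no count of the Kupffer cell gene Clec4f. Since the livers differed in treatment, the replicate error takes in the spread of class differences over 3 differently treated mice. It is estimated from all 3 classes in the fit, C1q macrophages included. Of 12696 genes tested, 103 (0.811%) were higher in members and 24 (0.189%) lower at a Benjamini-Hochberg adjusted p of 0.05. Genes read by any selection were left out. Itgal, Itga4, Bcl2 and 4 further Ly6C-low monocyte genes were among those that rose, and Ccl2, Spp1 and Arg1 among those that fell. The counts rest on all 3 livers: 23 genes were higher and 7 lower without PBS, 29 and 11 without native MSC, and 14 and 11 without engineered MSC. Without the library as a block edgeR called 0 genes either way, with 672 higher and 634 lower at an unadjusted p under 0.05. DESeq2 with the block called 237 and 113. With only patrolling and classical monocytes in the edgeR fit, 135 genes were higher and 59 lower, of 8431 tested.

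From the list of 20 known Ly6C-low monocyte genes, 5 rose, none fell and 15 did not pass, against 0.811% of all genes. Of the 20, 18 had a log2 difference above 0, with a median of 0.83, against 45.2% of all genes tested and a median of -0.05. The selection itself favours this direction. Members were chosen for patrolling genes, and classical monocytes for few of these and for classical genes. Leaving out the selecting genes does not remove this for genes that vary with them. The list result is thus a description and no independent test of what the members are. Itgal was at 660, 365 and 786 CPM in members of PBS, native MSC and engineered MSC, against 234, 157 and 147 in classical monocytes. The 2 classes did not overlap, and the difference was 1.57 ± 0.17 on the log2 scale (SE, 3 livers, adjusted p = 0.00364), 2.97 times as high. It did not rest on a few cells, since Itgal had a count in 165 of 172, 100 of 108 and 16 of 18 members. After thinning, 70.8%, 53.3% and 75.0% of members had a count, against 34.7%, 28.3% and 29.1% of classical monocytes.

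Gngt2, a G protein gamma subunit, was at 867, 656 and 898 CPM against 381, 271 and 218, a log2 difference of 1.38 ± 0.15 (SE, adjusted p = 0.00364). Pou2f2, the transcription factor Oct2, was at 234, 184 and 346 CPM against 89.6, 94.0 and 84.4. Its difference was 1.28 ± 0.19 (adjusted p = 0.0146), and it lost the call without the PBS liver (0.0855) or the engineered MSC liver (0.0645). Cd274, the checkpoint ligand PD-L1, was at 115, 105 and 234 CPM against 55.7, 45.9 and 62.4, with an adjusted p of 0.0292. In engineered MSC 4 cells held 96.0% of its 25 UMIs, and it lost the call without native MSC (0.11) or engineered MSC (0.123). Dusp16, a phosphatase of MAP kinases, was at 168, 197 and 187 CPM against 86.4, 106 and 103 (adjusted p = 0.0172). These 5 genes were higher in members in each of the 3 livers, as were 21.7% of all genes tested.

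Cx3cr1 and Nr4a1, the genes most often tied to the patrolling cell, did not pass. Cx3cr1 was at 280, 152 and 140 CPM in members against 197, 64.4 and 74.3 in classical monocytes. It was higher in each of the 3 livers, by 0.82 ± 0.20 (SE), with an adjusted p of 0.0982. Its thinned detection was 41.5%, 30.8% and 31.2% in members, 30.6%, 11.4% and 12.8% in classical monocytes, and 0.855%, 1.97% and 1.61% in T cells. Nr4a1 was at 869, 670 and 945 CPM against 644, 459 and 442, a difference of 0.58 with an adjusted p of 0.188. This gene is also an immediate early gene that dissociation can raise. Of 24 transcription factors, Pou2f2 alone rose and none fell.

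Classical monocyte genes tended to lower values, but few passed. Here too the selection favours the direction, since the other class was chosen for classical genes. Of 17 tested, 1 fell, none rose, and 4 had a difference above 0, with a median of -0.57. Cd14, the co-receptor for endotoxin, was the gene that fell, at 336, 488 and 299 CPM against 646, 776 and 844 (log2 -1.09, adjusted p = 0.0314), a call lost without any 1 liver (0.0685 to 0.123). Ccr2 was at 828, 572 and 271 CPM against 1003, 786 and 578, lower in each liver (15.7% of all genes were), with a difference of -0.57 and an adjusted p of 0.404. Ly6c2, which encodes the Ly6C antigen itself, was at 177, 186 and 561 CPM against 365, 374 and 420. It was lower in PBS and native MSC and higher in engineered MSC, and did not pass (adjusted p = 0.485). With cells thinned before selection, which left 51 members, it passed at -2.72 (0.000888). Ly6c1 is a near-identical neighbour, and how their reads were split is uncertain.

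Survival and adhesion genes each had 2 members that rose. Bcl2, the founding anti-apoptotic gene, was at 126, 97.5 and 112 CPM in members against 33.7, 16.2 and 14.3 in classical monocytes. The log2 difference was 2.29 ± 0.19 (SE, adjusted p = 0.00154), 4.88 times as high, and it passed in each fit that left out a liver. Thinned detection of Bcl2 was 17.5%, 13.1% and 12.5% in members and 6.03%, 3.03% and 3.42% in classical monocytes. T cells hold far more Bcl2 (977, 691 and 650 CPM). Their markers Cd3d, Cd3g, Trac, Cd8a and Cd4 summed to 3.37, 1.95 and 9.35 CPM in members, a range of 1 to 4 UMIs. The other survival gene that rose, Pmaip1, encodes the death-promoting protein Noxa, at 224, 154 and 159 CPM against 121, 90.3 and 83.5 (adjusted p = 0.047). After thinning its difference was -0.16 (0.926), it lost the call without any 1 liver, and 15 of the 17 survival genes did not pass. Itga4, the alpha chain of the integrin VLA-4, was at 585, 352 and 889 CPM against 258, 213 and 234 (adjusted p = 0.0329), and with Itgal made up the 2 of 19 adhesion genes that rose. Its call was lost without PBS (0.124) or engineered MSC (0.224).

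**Figure D3:**
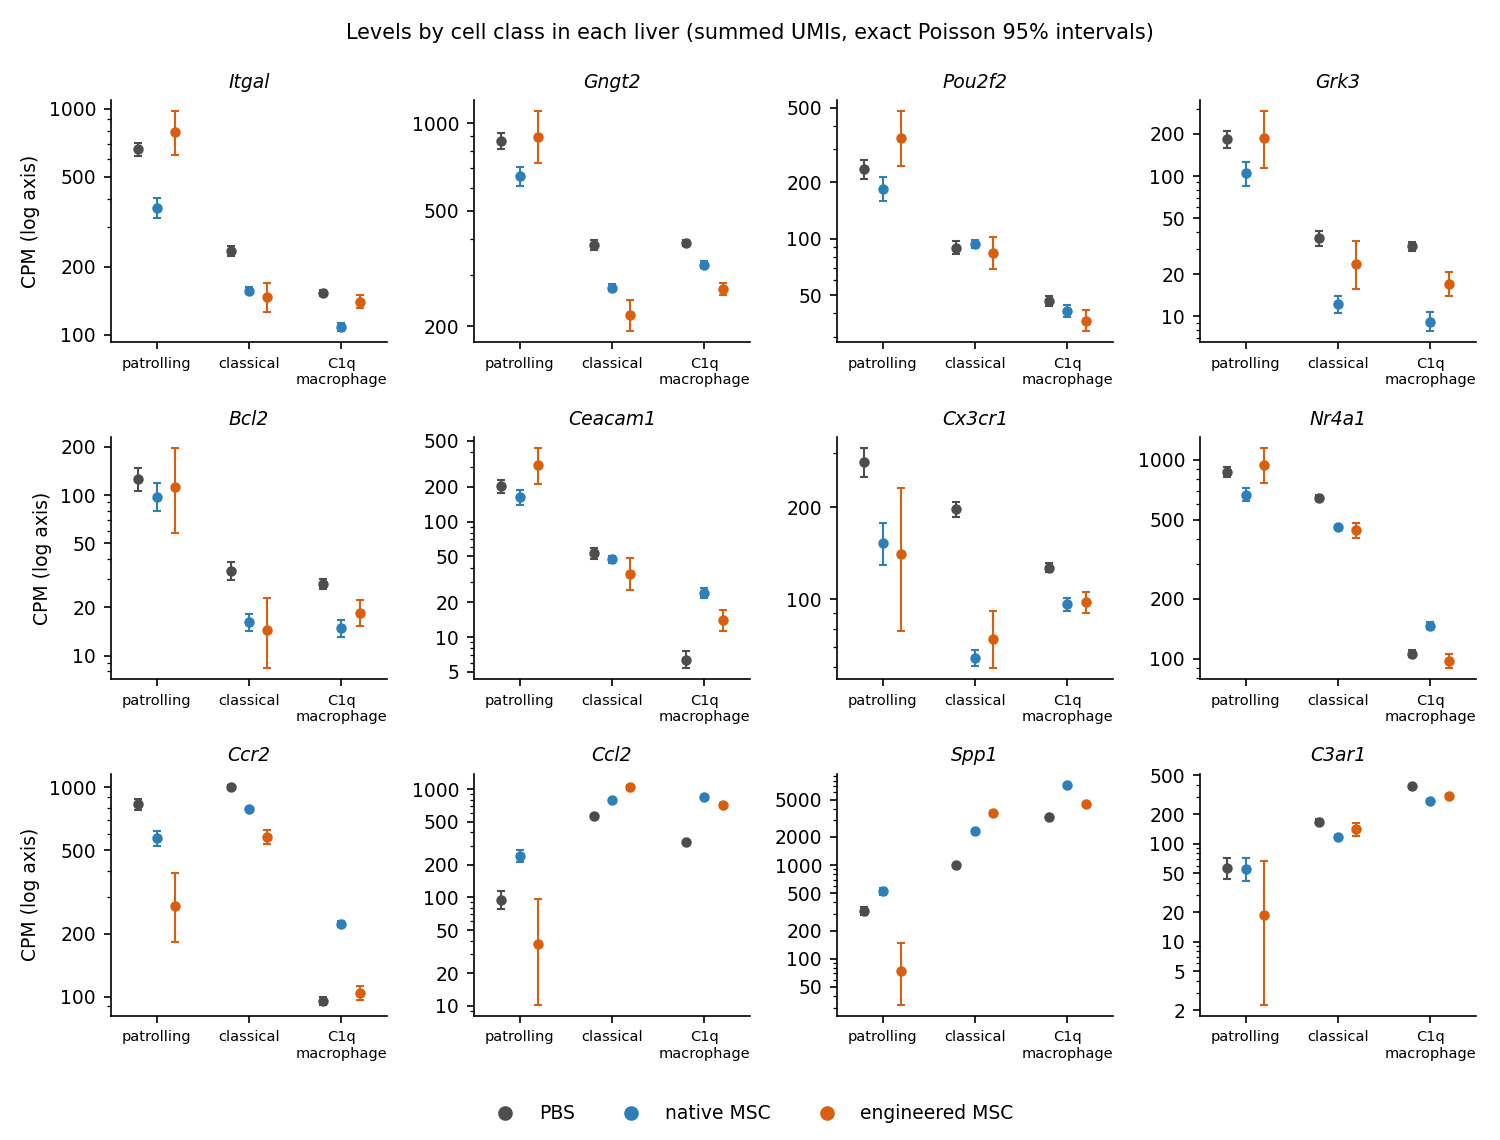
Level (CPM, log axis) of 12 genes in patrolling monocytes, classical monocytes and C1q macrophages of each liver (colours). Points are UMIs summed over cells and bars exact Poisson 95% intervals; members lie above classical monocytes in each liver for Itgal, Gngt2, Pou2f2, Grk3, Bcl2 and Ceacam1, and below for Ccl2, Spp1 and C3ar1, while Cx3cr1, Nr4a1 and Ccr2 did not pass the test.

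Outside the lists, Grk3 and Ceacam1 had large differences in all 3 livers. Grk3, a kinase that silences G protein-coupled receptors, was at 182, 104 and 187 CPM in members against 35.9, 12.1 and 23.6. The log2 difference was 2.70 ± 0.23 (SE, adjusted p = 0.00154), and the call held without any 1 liver. In T cells Grk3 was at 0.998, 2.19 and 2.66 CPM. Ceacam1, a homophilic adhesion molecule, was at 202, 162 and 309 CPM against 53.0, 47.2 and 35.4 (adjusted p = 0.031, and 0.214 without engineered MSC). Pot1b, a telomere protein, and Cyth3, an exchange factor for ARF proteins, rose by 1.96 and 1.91, and lost the call without engineered MSC (0.0544 and 0.0623). Rasgrp1, an activator of Ras, and the non-coding RNA Mirt1 rose by 2.10 and 2.01, but lost the call in each fit that left out a liver. Acod1, which makes itaconate, rose by 1.86, and by 0.56 (adjusted p = 0.779) with the highest doublet scores removed; 56.8% of its counts in PBS members, 63.2% in native MSC and 100% in engineered MSC lay in 4 cells. Gzma, an NK cell gene, also passed (adjusted p = 0.016), with 70 of its 73 native MSC UMIs in 1 cell.

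Among 11 MHC class II genes tested, 2 rose, none fell and the median was 1.41. Cd74, the invariant chain, was at 883, 913 and 571 CPM in members against 347, 183 and 130 (log2 1.87 ± 0.32, adjusted p = 0.0265). H2-Ab1, a class II beta chain, was at 232, 327 and 234 CPM against 96.5, 59.0 and 26.2 (adjusted p = 0.0448). In PBS they were spread, with Cd74 in 101 and H2-Ab1 in 61 of 172 members and 32.0% and 38.9% of the counts in 4 cells. In native MSC 4 of 108 members held 77.3% of the H2-Ab1 counts and 62.3% of the Cd74 counts. In engineered MSC 2 of 18 members held all of the H2-Ab1 counts, and 4 held 95.1% of those of Cd74. Thinned to 2000 UMIs neither gene passed (adjusted p = 0.247 for Cd74 and 0.435 for H2-Ab1), and both lost the call when any 1 liver was left out. Markers of type 2 dendritic cells other than Cd209a were low in members, at 21.1, 14.6 and 9.35 CPM summed over 4 genes, against 18.1, 25.5 and 20.3 in classical monocytes. Markers of type 1 dendritic cells were at 147, 139 and 122 CPM against 130, 103 and 123. B cell markers other than Cd79a were at 15.2, 4.88 and 9.35 CPM against 5.09, 3.44 and 6.75, from 18, 5 and 1 UMIs in members. Their part in the result was not tested.

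Among the 24 genes that were lower in members, Ccl2 had a large difference. It was at 95.3, 241 and 37.4 CPM in members against 561, 797 and 1039 in classical monocytes. The log2 difference was -2.52 ± 0.33 (SE, adjusted p = 0.0103), 5.74-fold lower, with no overlap of the classes. Spp1, osteopontin, was at 327, 526 and 74.8 CPM against 999, 2337 and 3640 (log2 -2.71, adjusted p = 0.0321). Arg1, arginase, was at 60.7, 39.0 and 56.1 CPM against 262, 206 and 339 (log2 -2.45, adjusted p = 0.0398). The Arg1 call was lost without PBS (0.0919) or engineered MSC (0.192) and after thinning (0.148). In PBS members 4 cells held 77.8% of its 72 UMIs. Of 23 inflammatory mediators tested, Ccl2 and Arg1 fell and none rose. C1q macrophage markers, summed over 7 genes, were at 4976, 4275 and 2404 CPM in members against 5950, 6133 and 7456. These sums take in C1q genes, which the selection held to at most 5 counts together in both classes. The part of these markers in the result was not tested.

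C3ar1 and Ccr1, receptors for the complement fragment C3a and for several chemokines, were the 2 of 17 chemoattractant receptors that fell. C3ar1 was at 56.5, 55.6 and 18.7 CPM against 168, 117 and 142 (log2 -1.50, adjusted p = 0.0134), and Ccr1 at 96.2, 136 and 28.1 CPM against 191, 233 and 186 (adjusted p = 0.0423). Lgals1, galectin 1, was at 231, 232 and 131 CPM against 528, 401 and 457 (log2 -1.19). Fabp5, a fatty acid binding protein, fell by 1.10, and with Spp1 made up the 2 of 23 scavenging and lipid genes that fell. Bnip3, a hypoxia-regulated mitochondrial gene, fell by 1.79, the 1 of 16 glycolysis and hypoxia genes to pass. Timp1, an inhibitor of matrix proteases, had 2 UMIs in PBS members and 0 in the others, against 51.1, 46.1 and 5.06 CPM in classical monocytes; no fold is given. It was the 1 of 22 repair and matrix genes that fell. Pf4, a platelet chemokine also made by macrophages, was at 24.5, 100 and 9.35 CPM against 130, 405 and 1083. Of the other platelet markers, Gp9 and Gp1bb had 0 UMIs in members, Itga2b was detected only in PBS and Ppbp only in native MSC. All 5 platelet markers, Pf4 included, summed to 30, 104 and 1 UMIs in members, and Pf4 made up 29 of the 30 in PBS. Every one of these lower genes lost the call in at least 1 fit that left out a liver: Ccl2 and Pf4 without PBS only (0.0667 and 0.0758), Spp1 without PBS or native MSC, and Ccr1, Lgals1, Fabp5 and Bnip3 without any 1.

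Several lists had no gene past the threshold. None of 12 Fc gamma receptor genes and partners, 14 class I presentation genes, 20 interferon response genes, 23 lysosome genes or 15 cell cycle genes passed in either direction. The class I genes were above 0 in 13 of 14 (median 0.39) and the Fc gamma genes in 9 of 12 (median 0.26), against 45.2% of all genes. The heat shock genes Hspa1a and Hspa1b rose by 0.95 and 1.04 (adjusted p = 0.0429 and 0.0247), the 2 of 18 immediate early and stress genes to pass. Both lost the call with the highest doublet scores removed (0.0847 and 0.0534). Hspa1a also lost it without any 1 liver (0.0805 to 0.246), and Hspa1b without PBS (0.123) or native MSC (0.254). They are near-identical copies, so their counts may be split. Lilra5, a paired receptor, also passed, with 12.7 and 10.7 CPM in PBS and native MSC members and 0 of 106919 UMIs in engineered MSC. Its call was lost without any 1 liver (0.0597 to 0.256).

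Against C1q macrophages, members differed far more, with 1842 genes (14.5%) higher and 1805 (14.2%) lower of 12696. There were 1588 such cells in PBS, 1031 in native MSC and 358 in engineered MSC. Of 23 scavenging and lipid genes, 21 fell and 1 rose, with a median log2 difference of -2.06. Fabp5 was at 206, 228 and 150 CPM in members against 2386, 2045 and 2139, and Spp1 was at 327, 526 and 74.8 CPM against 3234, 7164 and 4486. All 15 cell cycle genes fell, with a median of -2.29, although C1q macrophages were also the deeper cells (medians of 12446 to 14881 UMIs against 5178 to 8768 in members).

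Both monocyte programmes stood above these macrophages. Of 20 Ly6C-low genes 15 rose and 2 fell, the latter Cd36, a scavenger receptor, and Fabp4, a fatty acid binding protein. Of 17 classical genes 12 rose and none fell. Nr4a1 was 2.78 higher on the log2 scale (adjusted p = 1.4e-05), Pou2f2 2.45, Itgal 2.07 and Ccr2 2.00, and Cx3cr1 was 0.79 higher (adjusted p = 0.0154). Since members could not hold more than 5 C1q counts, part of this distance follows from the selection.

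Between libraries, members of native MSC and PBS had 8044 genes with at least 20 UMIs in the pair, and 8.40% of these were past 2-fold (2.76% higher, 5.64% lower in native MSC). Members held 1185541 UMIs in PBS, 1025593 in native MSC and 106919 in engineered MSC. The median per member was 6241.5, 8768 and 5178 UMIs, so numbers of members with a count are not at equal depth unless thinned. The engineered MSC comparison had 6919 genes, of which 7.49% were past 2-fold higher and 17.1% lower, 24.6% in all. The genes named for an interval bound past 1.5-fold come from 0.485% of genes (higher) and 0.92% (lower) in native MSC, and 0.188% and 0.636% in engineered MSC. Both comparisons use the same PBS members. With 1 mouse each, a ratio describes these 2 livers.

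Patrolling monocytes of the native MSC liver had lower levels of Cx3cr1 and Hes1 but a higher level of Fcgr4, all from the Ly6C-low list. Some granulocyte and classical monocyte genes were also higher. Cx3cr1 was at 152 CPM against 280 in PBS, a ratio of 0.543 (0.446 to 0.659), and was found in 65 of 108 against 123 of 172 members. Classical monocytes of the same livers had a ratio of 0.327, so the difference was not shown to be particular to members. Hes1, a target of Notch, a signal in the conversion to patrolling cells, was at 20.5 CPM against 107, 5.23-fold lower (3.28 to 8.74), in 16 against 53 members. Its ratio in classical monocytes was 0.234. Of the 20 Ly6C-low genes, 2 were past 2-fold higher and 3 lower, against 2.76% and 5.64% of all genes. Their median was -0.12, against -0.11 for all genes. Of 17 known classical monocyte genes, 3 were past 2-fold higher and 0 lower. The median of these 17 was 0.31, and 0.29 in classical monocytes.

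Bach2, a repressor in lymphocytes and myeloid cells, was at 62.4 CPM against 194 (3.11-fold lower, 2.35 to 4.17). Plcl1, a phospholipase C-like protein, was at 36.1 CPM against 259, 7.18-fold lower (5.09 to 10.4), in 20 against 83 members. Hspa1a was at 166 CPM against 526 and Hspa1b at 186 against 594, 3.18-fold and 3.19-fold lower. Hivep3, a zinc finger gene, and Acp5, an acid phosphatase of macrophages, were 4.12-fold and 2.87-fold lower. Lyz1 was 9.52-fold lower, but 84.4% of its PBS counts lay in 4 cells. The other genes of this paragraph had counts in 57 or more PBS members. In classical monocytes the ratio was 0.414 for Plcl1 and 0.791 for Lyz1, and from 0.229 (Bach2) to 0.447 (Hspa1a) for the rest.

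Among the genes that were higher in native MSC members, Mmp8, neutrophil collagenase, was at 122 CPM against 44.7, 2.73 times as high (1.96 to 3.83), in 57 against 29 members. Hp, haptoglobin, was 2.05 times as high (1.80 to 2.34). Fcgr4, an activating Fc receptor typical of patrolling monocytes, was at 221 CPM against 109, 2.03 times as high (1.63 to 2.54). It had counts in 80 of 108 against 73 of 172 members, unthinned, and the native MSC members were the deeper ones. Clec4e and Clec4n, lectin receptors for damaged cells and fungi, were 2.05 and 2.12 times as high. In classical monocytes these 5 genes had ratios from 1.43 (Clec4e) to 2.63 (Mmp8). Neutrophil markers moved with these genes, at 4760 CPM summed over 8 genes in native MSC members against 1786 in PBS, and 3290 against 791 in classical monocytes. Of the native MSC sum, 54.1% lay in 4 cells. Red cell transcripts were at 689 CPM in native MSC members against 4.22 in PBS, and at 7233 against 5.09 in classical monocytes. Their part in these ratios was not tested.

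The largest ratios rested on few cells. Of 11 cell cycle genes with enough counts, 10 were past 2-fold higher in native MSC members, with a median log2 ratio of 3.58, and 2.62 in classical monocytes. Mki67 had 68 UMIs against 4, Top2a 62 against 6 and Ube2c 84 against 1. But 4 of 108 members held 74.0% of all cell cycle counts in native MSC, and Mki67 was found in 9 members of native MSC and 4 of PBS. Thinned to 2000 UMIs, 4 of 107 native MSC members and 0 of 171 PBS members had an Mki67 count, the latter allowing up to 2.13% at that depth only; unthinned, 8.33% and 2.33% had one. Gzma, granzyme A, had 73 UMIs against 1, in 4 cells, beside a total of 86 UMIs of 5 NK cell markers, of which 80 lay in 1 cell. Ccl5 likewise lay in 4 cells, and Cstdc4, AA467197 and Ly6a had 92.7%, 95.8% and 70.5% of their counts in 4 cells. Without the highest doublet scores the log2 ratio of Ccl5 turned to -0.49 and that of Gzma fell to 1.51.

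**Figure D4:**
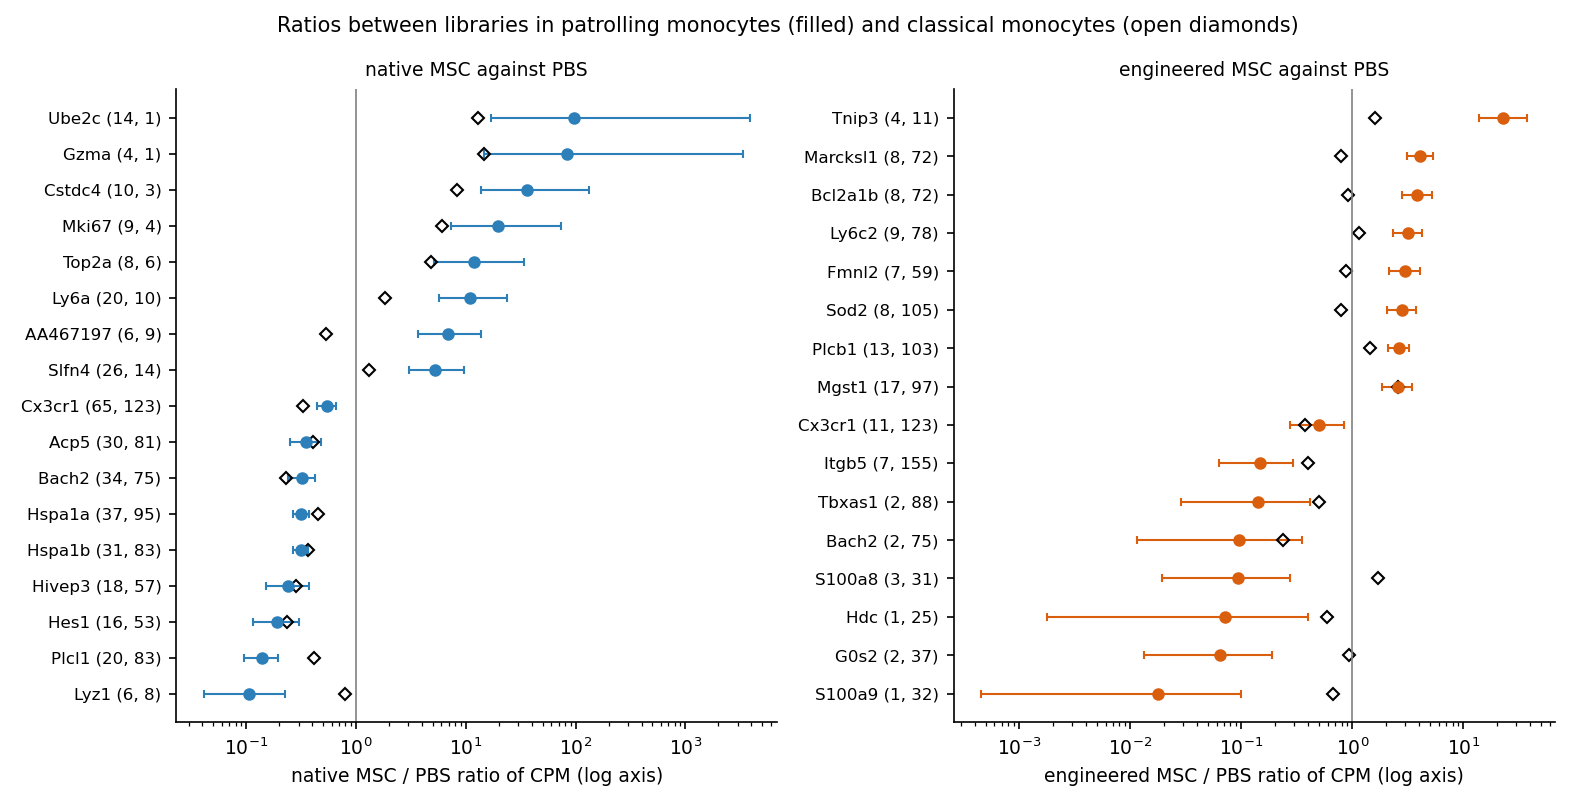
Ratio of levels (log axis) between the native MSC or engineered MSC library and PBS in patrolling monocytes, with exact 95% counting intervals, for Cx3cr1 and the genes with the furthest interval bound in each direction; open diamonds give the ratio in classical monocytes. The 2 numbers after each gene are the members with a count in that library and in PBS; the highest ratios, Ube2c, Gzma and Cstdc4 on the left and Tnip3 on the right, come from 4 to 14 cells.

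The 18 engineered MSC members gave few counts, and only differences seen in most of them, or absent from most, can be read. Itgb5, an integrin beta chain, had a count in 7 of 18 members against 155 of 172 in PBS and was at 74.8 CPM against 509, 6.81-fold lower (3.43 to 15.8). Ccr2 was at 271 CPM against 828, 3.05-fold lower, in 7 of 18 against 148 of 172 members. Cd63, a lysosomal tetraspanin, had 0 UMIs in 18 members and was found in 73 of 172 in PBS, at least 3.76-fold lower over a floor of 3 counts in the library. Tbxas1, thromboxane synthase, was found in 2 of 18 against 88 of 172 members, with a ratio of 0.141 (0.0289 to 0.417). Bach2 was found in 2 against 75 members, with a ratio of 0.0964 (0.0116 to 0.352). In classical monocytes the ratio was 0.400 for Itgb5, 0.576 for Ccr2, 0.745 for Cd63, 0.503 for Tbxas1 and 0.239 for Bach2.

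Higher in most engineered MSC members was Mgst1, a microsomal glutathione transferase, with counts in 17 of 18 against 97 of 172 members. It was at 496 CPM against 193, 2.57 times as high (1.87 to 3.47), and 2.58 times in classical monocytes. Plcb1, a phospholipase C, was found in 13 of 18 against 103 of 172, at 2.61 times the PBS level (2.10 to 3.22), with 70.4% of the counts in 4 cells. With at least 4 of 6 selecting genes its log2 ratio turned to -0.17. Pou2f2 was found in 16 of 18 against 119 of 172 members, at 1.48 times the PBS level (1.02 to 2.09). Itgal was found in 16 of 18 against 165 of 172, with a ratio of 1.19 (0.938 to 1.49) that includes 1. The known Ly6C-low genes were above PBS for 15 of 20, with a median of 0.14 against -0.11 for all genes. Cx3cr1 was not among these, at 140 CPM against 280, a ratio of 0.501 (0.277 to 0.838). Of the 20, 2 were past 2-fold higher and 1 lower, against 7.49% and 17.1% of all genes. The known classical monocyte genes, which include Mgst1, were above PBS for 9 of 17, with a median of 0.04. Of these 17, 3 were past 2-fold higher and 4 lower.

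A few engineered MSC cells carried the remaining large ratios. Tnip3, an inhibitor of NF-kB signalling, was 22.6 times as high (13.9 to 37.7), and all of its 53 UMIs lay in 4 cells. The same holds for Bcl2a1a and Bcl2a1d, relatives of Bcl2 whose near-identical copies make their counts uncertain, and nearly so for Bcl2a1b, Sod2 and Marcksl1 (93.1%, 93.2% and 93.8% in 4 cells). Of 16 interferon response genes, 5 were past 2-fold higher and 1 lower, against 7.49% and 17.1% of all genes. Their median was 0.73, against -0.11 for all genes and -0.29 for these genes in classical monocytes. Of 23 UMIs of Isg15, an interferon-induced modifier, 95.7% lay in 4 cells. With at least 4 of 6 selecting genes its log2 ratio turned to -0.60. The spread over cells is given for Isg15 alone. Ly6c2 was 3.17 times as high (2.34 to 4.24), in 9 of 18 against 78 of 172 members, with 71.7% of the counts in 4 cells.

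S100a8 and S100a9, the calprotectin genes of neutrophils and classical monocytes, were almost missing from engineered MSC members, with 3 and 1 UMIs and ratios of 0.0940 (0.0193 to 0.277) and 0.0179 (0.000454 to 0.100). In PBS they were at 299 and 521 CPM, but 31 and 32 of 172 members had any, and 4 cells held 72.3% and 73.0% of the counts. Without the highest doublet scores the log2 ratio of S100a8 was -0.50. Hepatocyte transcripts summed to 4985 CPM in engineered MSC members against 273 in PBS, with 5121 and 295 in classical monocytes. Endothelial markers summed to 917 CPM against 163 in PBS, and 246 and 195 in classical monocytes. Their part in these ratios was not tested. Of the members, 18 of 172 in PBS, 23 of 108 in native MSC and 2 of 18 in engineered MSC had a doublet score among the highest of their library. Of all deposited barcodes, 923 of 10739, 1054 of 11479 and 973 of 11028 had one, numbers set in advance by library size.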

How the data were processed

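Each library was deposited as a filtered matrix of UMI counts for 34099 genes, not normalized; per the submitters' processing notes Cell Ranger 7.1.0 and GRCm39 were used. Cells were kept with at least 200 genes, 500 UMIs and at most 20% mitochondrial UMIs. Free RNA was not subtracted. Doublets were scored with Scrublet (scanpy 1.11.5) and kept; an alternative removed the highest scores. UMIs were summed per class and liver; the library is a block because the classes of a liver come from the same mouse. Classes were tested with edgeR 4.0.16 (R 4.3.3; TMM, filterByExpr, quasi-likelihood, Benjamini-Hochberg adjustment over all genes tested) and, as an alternative, DESeq2 1.42.0. Levels between libraries are CPM, with exact Poisson, binomial (Clopper-Pearson) and conditional binomial 95% intervals for counting error only.

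Named against classical monocytes were the 10 largest called differences in each direction (same sign in 3 livers, mean of at least 50 CPM), up to 4 called genes per list, and Cx3cr1, Nr4a1, Itgal, Ly6c2 and Ccr2; another gene that the rule names is not reported here. Dusp16, Fn1, Cd36, Fabp4, Gzma against classical monocytes and the platelet genes were chosen after their values were seen. Between libraries they were the 8 genes with the furthest interval bound past 1.5-fold (the higher library holding 50 or more UMIs and CPM, members at 0.5 or more times the level of other kept cells) in each direction, and up to 3 per list with at least 20 UMIs. The members and lists were chosen with earlier results of these data known. The fits and intervals were checked on simulated data.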

Additional observations from a re-analysis of the deposited data

How the results depend on the processing

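Genes higher and lower in members than in classical monocytes numbered 103 and 24 in edgeR, 237 and 113 with DESeq2 and 315 and 518 without a filter. Without the replicate block, that is, without pairing the classes within a liver, 0 and 0 passed in edgeR, with 672 and 634 at an unadjusted p under 0.05; all 103 and 24 calls kept their direction there. Leaving out 1 library gave 14 to 29 higher and 7 to 11 lower genes, and against C1q macrophages 1005 to 1543 higher and 733 to 1566 lower. Lower genes were 59 with only the 2 classes in the fit, 88 with at least 4 of 6 genes, 62 with doublets removed and 85 after thinning. Against macrophages, 980 genes were higher with at least 4 of 6 genes, and 412 higher and 404 lower after thinning. Fewer genes or cells entered the fits with only 2 classes, at least 4 of 6 genes, doublets removed or thinning (4550 to 12552 genes against 12696). The fit without a filter tested 23235 genes. Why the counts changed was not tested.

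The log2 ratio of shares, native MSC to PBS, was -0.64, and -1.40 with at least 4 of 6 genes, -0.16 with at most 2 C1q counts, -1.13 after thinning and -1.40 as a share of monocytes. Engineered MSC to PBS was -3.20, and -1.98 after thinning and -0.15 as a share of monocytes. Engineered to native MSC was -2.56, and -0.84 after thinning and 1.25 as a share of monocytes. Genes past 2-fold, native MSC to PBS, were 12.4% with at least 4 of 6 genes, 9.29% with each cell counted alike, 4.82% at 50 UMIs or more and 7.73% with TMM factors. For engineered MSC they were 35.4%, 32.9%, 16.1% and 27.0%, and 26.3% with doublets removed.

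Log2 ratios of named genes also turned. With at least 4 of 6 genes, native MSC to PBS became -1.58 for H2-Eb1, -0.059 for Ccl2, -0.23 for Egr1 and 0.00096 for Hk2. With doublets removed it was -0.49 for Ccl5 and -0.062 for Egr1. For engineered MSC it became -0.17 for Plcb1, -1.81 for Cd36, -0.18 for Fcgrt, -0.60 for Mrc1 and -0.60 for Isg15 with at least 4 of 6 genes, and -1.08 for Fcgrt and -0.31 for Mrc1 with doublets removed. The value of 0.92 for Retnlg with doublets removed rests on a small count added to 0 UMIs in engineered MSC and is no measured ratio. Pmaip1 was -0.16 against classical monocytes after thinning. The cause was not tested.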
